A study of Elaeis guineensis with 15 samples.

Results

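A small group of transcripts was abundant in both ripe tissues of the oil palm fruit base and nearly absent from the immature abscission zone (AZ). Pooled over the ethylene-treated libraries, each transcript stayed below 2 times its untreated level in both ripe tissues, though single treated libraries could pass that level. The group was selected on its own read counts in 12 Roche pyrosequencing libraries. A contig, that is an assembled transcript sequence, was kept where it held at least 30 reads in the ripe AZ and 30 in the ripe pedicel, where its rate in both was at least 8 times that in the immature AZ, and where the rate pooled over the ethylene-treated libraries stayed below 2 times the untreated rate in both ripe tissues. Of 51804 contigs, 13 were kept, after CL1Contig12538, a cellulose synthase-like contig that met every limit, had been set aside by name. Of the 2332 contigs with enough reads in both ripe tissues, 34 reached the 8-fold ratio in the ripe AZ, 33 in the ripe pedicel and 24 in both, and of these 24, 10 reached the 2-fold ethylene limit in at least 1 ripe tissue. The ripe to immature ratios and the treated to untreated ratios below therefore describe how the contigs were chosen and carry no test.

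The fruit came from a single tenera clone grown in Thailand, with bunches taken from different palms. The libraries covered the base of the fruit with the AZ at 150 days after pollination (AZ150), the neighbouring pedicel of the same age (P150), and the fruit base with the AZ at 30 days after pollination (AZ30), each at 0 h without ethylene and after 3, 6 and 9 h of ethylene; days after pollination are abbreviated DAP. Each tissue and time was 1 library, so no condition had a replicate and the times or tissues stand in for repeats in the tests below. A further set of 3 Illumina libraries covered the AZ of field fruit at 30, 120 and 160 DAP, where shedding was seen at the last age only.

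Abscission is the shedding of an organ through a layer of specialised cells whose walls come apart. In fleshy fruit it is tied to ripening, and ethylene, the ripening hormone, hastens it by turning on genes for wall-degrading enzymes in the AZ. Transcripts can also accumulate as the fruit matures before any ethylene is applied, and in the tissue beside the AZ as well as in it. The contigs described here were picked for a high level in both ripe tissues, but with no pedicel library at 30 DAP, age and tissue cannot be told apart in P150 against AZ30.

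The 12 libraries held 26560 to 302391 reads, the smallest being AZ30 at 0 h and the largest P150 at 6 h. Levels are given as reads per 100000 library reads, with exact 95% intervals that cover counting error only. A single read was worth between 0.331 and 3.77 reads per 100000, so a value at 9 h in P150 (41588 reads) or at 0 h in AZ30 is coarse. The 5 contigs used as markers of the ripe AZ summed to between 33.1 and 812 reads per 100000 in AZ150 and to between 0 and 31.3 in P150. The AZ150 low, at 0 h, was mostly a SEPALLATA3-like contig at 30.2, and the P150 high, at 9 h, mostly the laccase EgLAC7 at 26.4. EgLAC7 and the polygalacturonases EgPGAZ1, EgPGAZ2 and EgPG4 among the markers were retained by the study for differing between these tissues in these libraries. The difference in the sums is therefore no independent check. The same markers summed to between 8.94 and 123 in AZ30. A set of 5 contigs for lipid and carotenoid synthesis, used as markers of the adjoining oil-rich flesh, summed to between 112 and 251 in AZ150, between 45.9 and 85.0 in P150 and between 33.1 and 86.6 in AZ30, and the part of flesh tissue in the contigs' levels was not tested. The higher sum in AZ150 came mainly from the stearoyl-ACP desaturase contigs, CL1Contig17590 and CL1Contig7507, at pooled rates of 52.3 and 91.9 in AZ150 against 24.0 and 19.7 in P150, whereas the phytoene synthase contigs, CL1Contig21814 and CL1Contig7889, were at 6.20 and 8.90 in AZ150 against 11.9 and 12.3 in P150. Because whole tissue pieces were sequenced, more cells of a type and more RNA per cell cannot be told apart.

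Over the 13 contigs, 1121 reads came from AZ150, 2181 from P150 and 55 from AZ30. The pooled rate ran from 8.09 to 74.7 reads per 100000 in AZ150, with a median of 16.2, and from 4.44 to 62.7 in P150, with a median of 12.5. In AZ30 it ran from 0 to 2.10, with a median of 0.935. The contigs were found in all 8 ripe libraries in 12 of 13 cases, and for 10 of the 13 every ripe library lay above every AZ30 library. The read and ratio limits favour such a separation and its share over all contigs was not taken, so these counts describe the selection. Of the 13, 4 carried an annotation in the part of the study's tables that was read, which held 1050 contigs, fewer than the study lists. These were a jasmonate-induced protein, a homeodomain transcription factor, a rubber elongation factor family protein and a glycosyltransferase. For the other 9, only the contig name is known here, and the study may annotate them in the part not read. Whether any of the 13 contigs come from the same transcript was not tested.

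**Figure D1:**
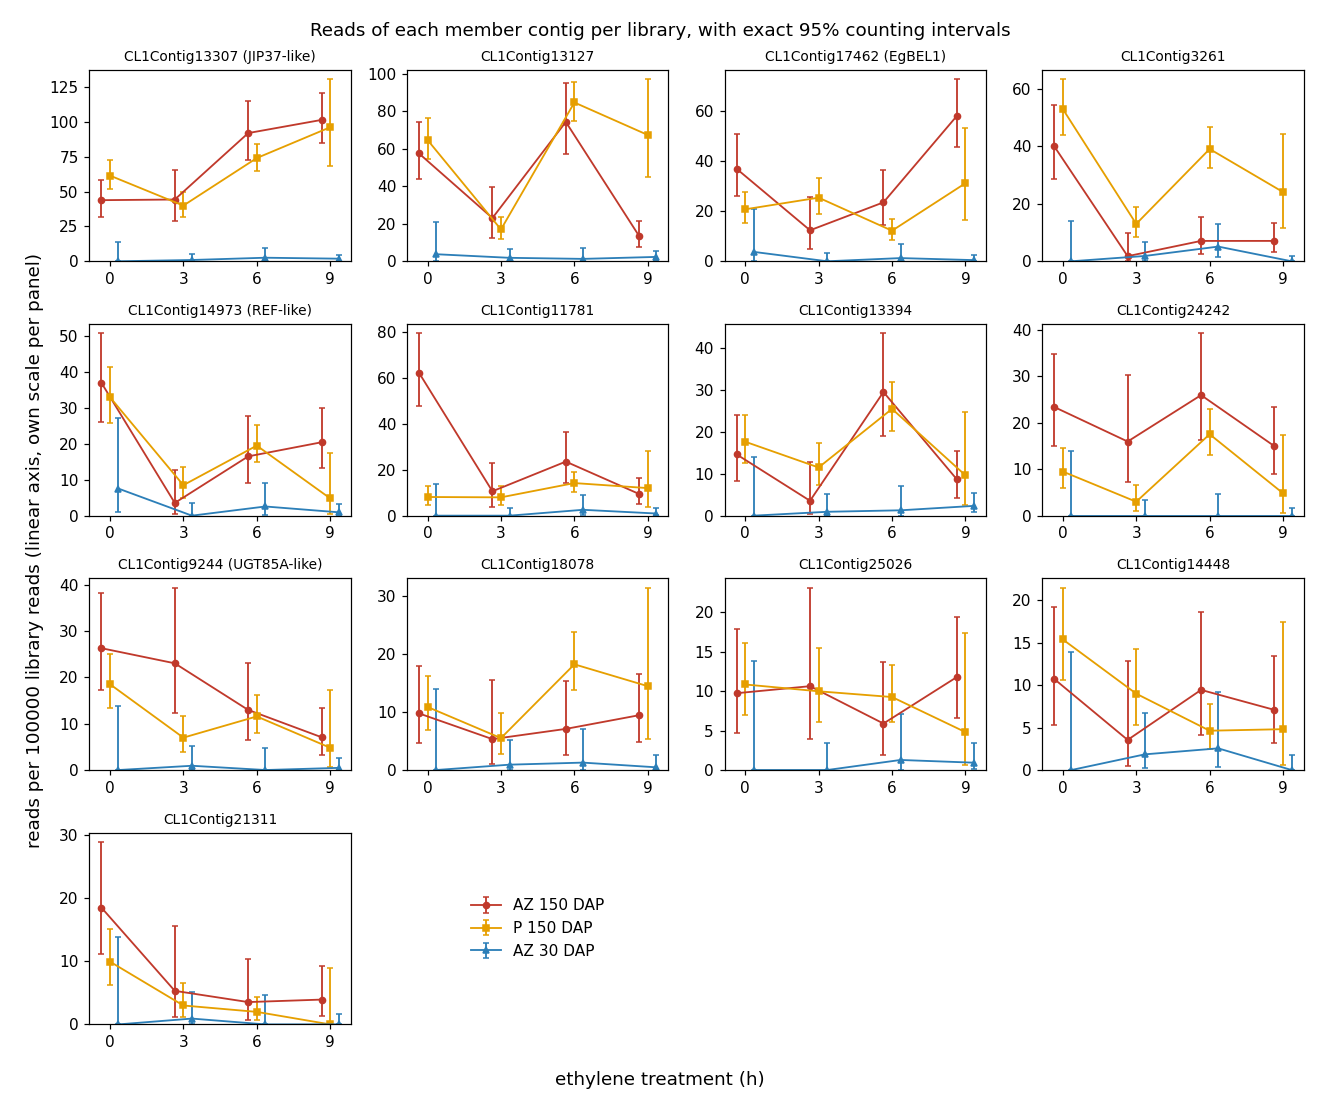
Reads per 100000 library reads of each of the 13 contigs (vertical axis, linear, with its own scale in each panel) against hours of ethylene (horizontal axis), in AZ150 (red circles), P150 (orange squares) and AZ30 (blue triangles). Bars are exact 95% counting intervals of 1 library; AZ30 stays between 0 and 7.53 in every panel, while CL1Contig13307 is between 40.0 and 101 in the ripe libraries.

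CL1Contig13307 was the most abundant of the group. It matches a jasmonate-induced protein of barley (JIP37), one of a set of proteins that accumulate in barley leaves treated with the stress hormone jasmonate, and it is assigned to transcript XM_010922107 of LOC105044287. In AZ150 it had 43.9, 44.3, 92.0 and 101 reads per 100000 at 0, 3, 6 and 9 h. In P150 it had 61.5, 40.0, 74.1 and 96.2 at the same times, and in AZ30 0, 0.923, 2.55 and 1.87, so the lowest ripe library was far above the highest immature one. The pooled rate was 45.6 times that of AZ30 in AZ150 (95% interval 21.8 to 115) and 38.3 times in P150 (18.5 to 95.8). Its treated rate in AZ150 was 1.97 times the 0 h rate (1.43 to 2.78), the nearest of all 13 to the 2-fold limit and the only one whose interval lay wholly above 1, against 1.03 times (0.840 to 1.26) in P150. In AZ150 its 6 h and 9 h libraries stood above the 3 h library and at more than 2 times the 0 h library. It met the rule for contigs without a rise by a narrow margin, since the rule pooled the treated times.

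CL1Contig17462 encodes EgBEL1, a homeodomain transcription factor of the BELL class, whose members act in pairs with KNOX homeodomain proteins; in Arabidopsis, BEL1 itself is needed for the development of the ovule coats. It had 37.0, 12.4, 23.6 and 58.2 reads per 100000 in AZ150 at 0, 3, 6 and 9 h. In P150 the values were 20.8, 25.5, 12.2 and 31.3, and in AZ30 they were 3.77, 0, 1.28 and 0.466, each AZ30 value above 0 being a single read. Its highest level in each ripe tissue was at 9 h, while the treated to 0 h ratio was 1.02 (0.694 to 1.52) in AZ150 and 0.892 (0.624 to 1.29) in P150. The pooled rate was 53.4 times that of AZ30 in AZ150 (17.9 to 262), the highest such ratio among the contigs with at least 3 reads in AZ30, and 27.4 times in P150 (9.19 to 134). A relative of the same class that was not selected, CL1Contig3395 (BLH6-like), had pooled rates of 15.9 in AZ150, 28.1 in P150 and 7.95 in AZ30.

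CL1Contig14973 matches a rubber elongation factor family protein (XM_010912078, LOC105036311). Proteins of this family coat rubber particles in the rubber tree and lipid droplets in other plants, including those of oil-rich fruit flesh. In AZ150 it had 37.0, 3.55, 16.5 and 20.4 reads per 100000 at 0, 3, 6 and 9 h. In P150 it had 33.0, 8.49, 19.5 and 4.81, and in AZ30 7.53, 0, 2.55 and 0.933. Its untreated library was the highest in both ripe tissues, and the treated rate was 0.423 of the 0 h rate (0.266 to 0.674) in AZ150 and 0.434 (0.311 to 0.606) in P150. It is 1 of 3 contigs whose ripe and AZ30 libraries overlapped, since 2 reads in the shallow AZ30 library at 0 h gave a level above the 3 h library of AZ150 and the 9 h library of P150.

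CL1Contig9244 matches a UDP-glycosyltransferase close to UGT85A2 of Arabidopsis (XM_019849431, LOC105041939), an enzyme class that attaches sugars to small molecules such as hormones and defence compounds. It had 26.3, 23.0, 12.97 and 7.08 reads per 100000 in AZ150 at 0, 3, 6 and 9 h. In P150 it had 18.5, 6.99, 11.6 and 4.81, and in AZ30 0, 0.923, 0 and 0.466, that is 2 reads in all. Each AZ150 library was thus lower than the one before it, and the treated rate was 0.467 of the 0 h rate (0.273 to 0.808) in AZ150 and 0.505 (0.328 to 0.782) in P150. The pooled rate was 34.6 times that of AZ30 in AZ150 (9.17 to 292) and 25.7 times in P150 (6.92 to 215).

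Among the 9 contigs for which no annotation was read, CL1Contig13127 was the most abundant. It had 57.5, 23.0, 74.3 and 13.4 reads per 100000 in AZ150 at 0, 3, 6 and 9 h, and 64.7, 17.0, 84.7 and 67.3 in P150. In AZ30 it had 3.77, 1.85, 1.28 and 2.33. The 0 h and 6 h libraries were high in both ripe tissues and the 3 h libraries low, whereas at 9 h P150 was high and AZ150 low.

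CL1Contig3261 had 40.0, 1.77, 7.08 and 7.08 reads per 100000 in AZ150 at 0, 3, 6 and 9 h, against 52.9, 12.99, 39.0 and 24.0 in P150. In AZ30 it had 0, 1.85, 5.11 and 0, so that its AZ150 library at 3 h, with 1 read, lay within the range of AZ30. Its treated rate was 0.149 of the 0 h rate in AZ150 (0.0782 to 0.272), the lowest of the 13 contigs, and 0.535 in P150 (0.418 to 0.686). CL1Contig11781 had 62.4, 10.6, 23.6 and 9.44 in AZ150 and 8.14, 7.99, 14.2 and 12.0 in P150, against 0, 0, 2.55 and 0.933 in AZ30. For this contig the treated rate was 0.227 of the 0 h rate in AZ150 (0.148 to 0.344), and 1.44 times it in P150 (0.846 to 2.59), where the interval included 1. In AZ150 the 0 h library was the high one for both contigs.

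CL1Contig24242 was not found in AZ30 at all. It had 23.4, 15.96, 25.9 and 14.9 reads per 100000 in AZ150 at 0, 3, 6 and 9 h and 9.50, 3.00, 17.5 and 4.81 in P150. Set against 3 reads over the pooled AZ30 libraries, the limit that a count of 0 allows, its pooled rate was 28.4-fold higher in AZ150 and 15.3-fold higher in P150. These ratios leave out the counting error of the ripe libraries. CL1Contig13394 had 14.6, 3.55, 29.5 and 8.65 in AZ150 and 17.6, 11.5, 25.5 and 9.62 in P150, with its highest level at 6 h in both, against 0, 0.923, 1.28 and 2.33 in AZ30. In AZ150 its 6 h library was just above 2 times its 0 h library. Both contigs thus peaked at 6 h in AZ150 and in P150.

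The remaining 4 contigs were weaker, with pooled rates of 8.09 to 9.70 reads per 100000 in AZ150 and 4.44 to 12.5 in P150. CL1Contig21311 had 18.5, 5.32, 3.54 and 3.93 in AZ150 at 0, 3, 6 and 9 h and 9.95, 3.00, 1.98 and 0 in P150, with 1 read in AZ30. It was the only contig absent from a ripe library, P150 at 9 h, where a count of 0 allows up to 7.21 reads per 100000. Its treated rate was 0.221 of the 0 h rate in AZ150 (0.0952 to 0.490) and 0.222 in P150 (0.09997 to 0.468), the lowest in P150. CL1Contig14448 had a treated to 0 h ratio of 0.660 in AZ150 (0.299 to 1.54) and 0.406 in P150 (0.245 to 0.674). CL1Contig18078 had ratios of 0.803 in AZ150 and 1.22 in P150, and CL1Contig25026 had 0.994 in AZ150 and 0.847 in P150, and their intervals all included 1.

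The limits of the rule were met by small margins in a few cases. The contigs just inside the 8-fold limit were CL1Contig14448 at 8.65, CL1Contig13394 at 8.73 and CL1Contig3261 at 10.95 in the lower of their 2 ratios. Just outside it were CL1Contig16651 at 6.85, CL1Contig21390 at 6.59 and CL1Contig14782 at 6.43. For reads, CL1Contig14448 and CL1Contig21311 had 30 and CL1Contig18078 had 31 in the tissue with fewer, and the nearest contigs left out had 27, 26 and 25. On the ethylene limit, CL1Contig13307 at 1.97, CL1Contig11781 at 1.44 and CL1Contig18078 at 1.22 were the nearest inside. A metallothionein MT3-like contig, CL1Contig5452, was the nearest outside, at 2.18 in P150 and 0.890 in AZ150, followed by a cytochrome P450 (CL1Contig25019) at 4.73. Next came a homocysteine methyltransferase, CL1Contig4187, at 5.26 in AZ150 and 5.81 in P150, which was also set aside by name. Another homocysteine methyltransferase, CL1Contig1760, stood at 6.63.

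The rule set only an upper limit on the ethylene ratio, and most of the contigs lay well below it. The treated rate was below the 0 h rate for 11 of 13 contigs in AZ150 and for 8 of 13 in P150, with 7 below in both. Among the 1673 contigs with at least 30 reads in both ripe tissues and no ethylene rise by the same limit, the shares were 60.2% in AZ150, 63.4% in P150 and 44.2% in both. The count in P150 was thus near its share. The interval lay wholly below 1 for 6 contigs in AZ150 and 5 in P150. It did so in both tissues for 4, namely CL1Contig3261, the rubber elongation factor-like CL1Contig14973, the glycosyltransferase-like CL1Contig9244 and CL1Contig21311. The share of such intervals among the 1673 contigs was not taken, so these counts describe the 13 contigs only. The median ratio was 0.660 in AZ150 (range 0.149 to 1.97) and 0.892 in P150 (range 0.222 to 1.44). All 3 treated libraries lay below the 0 h library for 7 contigs in AZ150 and 6 in P150, beside 35.3% and 37.3% of the 1673. These ratios rest on a lone 0 h library per tissue.

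**Figure D2:**
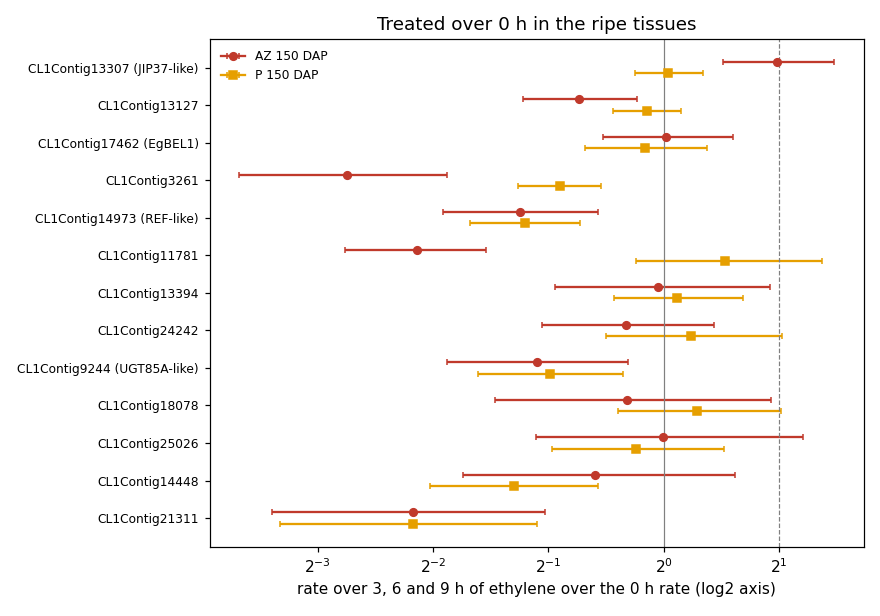
Rate pooled over 3, 6 and 9 h of ethylene divided by the 0 h rate (horizontal axis, log2 scale) for each contig (vertical axis), in AZ150 (red circles) and P150 (orange squares), with exact 95% counting intervals. The solid line marks 1 and the dashed line the limit of 2 used in the selection; CL1Contig13307 in AZ150, at 1.97, is the point nearest the limit and CL1Contig3261 in AZ150, at 0.149, the lowest.

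Summed over the 13 contigs, the level in AZ150 was 391 reads per 100000 at 0 h (354 to 431), 163 at 3 h (131 to 200), 331 at 6 h (294 to 372) and 273 at 9 h (245 to 303). In P150 it was 334 at 0 h (310 to 359), 161 at 3 h (144 to 179), 332 at 6 h (312 to 354) and 279 at 9 h (231 to 334). The 3 h library was thus the lowest in both ripe tissues, with an interval clear of those at the other times. In AZ30 the sums were 15.1, 10.2, 21.7 and 10.7 at 0, 3, 6 and 9 h, on 4, 11, 17 and 23 reads. Without CL1Contig13127 and CL1Contig13307, the most abundant contigs, the sums were 289, 95.7, 165 and 158 in AZ150 and 208, 104, 174 and 115 in P150.

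The low 3 h level was shared by 7 contigs, which were below both 0 h and 6 h at 3 h in AZ150 and in P150. These were CL1Contig13127, CL1Contig3261, the rubber elongation factor-like CL1Contig14973, CL1Contig11781, CL1Contig13394, CL1Contig24242 and CL1Contig18078, with CL1Contig11781 in P150 only just so, at 7.99 against 8.14 at 0 h. Among the 1673 contigs with at least 30 reads in both ripe tissues and no ethylene rise by the same limit, 371 did so, which is 22.2%. The 3 h level was a median 0.335 of the 0 h level over the 13 contigs in AZ150 and 0.506 in P150, beside 0.840 and 0.843 over those 1673 contigs. The 6 h level was a median 2.08 times the 3 h level in AZ150 and 1.85 times in P150, beside 1.03 and 0.949. The other 6 contigs summed to 146, 99.3, 147 and 190 reads per 100000 in AZ150 at 0, 3, 6 and 9 h and to 137, 94.4, 114 and 142 in P150. The 0 h level took part in the selection and the pattern was noticed in the data, so these counts are a description. The 3 h libraries held 56408 reads in AZ150 and 200221 in P150, and the part of the library itself in the low level was not tested.

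**Figure D3:**
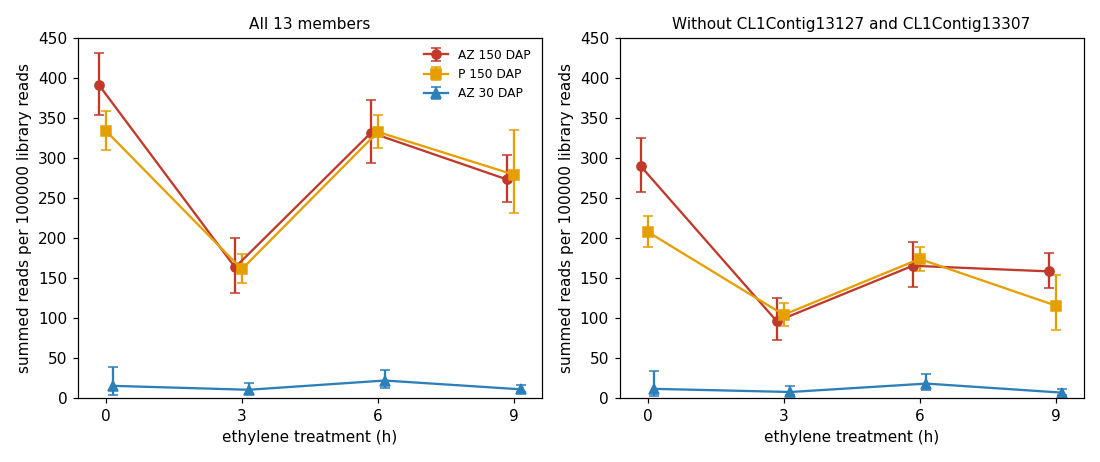
Summed level of the contigs (vertical axis, reads per 100000 library reads) against hours of ethylene (horizontal axis) in AZ150, P150 and AZ30, for all 13 contigs (left) and for the 11 that remain without CL1Contig13127 and CL1Contig13307 (right). Points are single libraries with exact 95% counting intervals; the 3 h point, at 163 in AZ150 and 161 in P150 on the left, is the lowest in both ripe tissues.

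The order of the treated times was not a limit of the selection, and it was tested over the 8 ripe libraries with tissue and time as terms. The selection pooled reads, however, so deep libraries weighed more in it. P150 held 302391 reads at 6 h, 200221 at 3 h and 41588 at 9 h, and AZ150 held 84788 at 6 h and 56408 at 3 h. Contigs high at 6 h could therefore pass more readily, and these tests are not fully independent of the selection. At 6 h against 3 h, a contrast added after the values were seen, CL1Contig13127 was higher (log2 fold change 2.15 ± 0.51 SE, adjusted p = 0.00259, edgeR quasi-likelihood test with Benjamini-Hochberg adjustment), and it was higher at 6 h in both tissues. That is 1 of 13 contigs, beside 1.71% called higher of the 8632 contigs tested. At an unadjusted p under 0.05 there were 7 contigs, all higher at 6 h, beside 6.45% of the contigs tested, and none of the other 6 passed the adjusted test. The median log2 fold change was 1.07 over the 13 contigs and 0.07 over all contigs tested. The call on CL1Contig13127 was lost when every contig with a read was tested (adjusted p = 0.0683 by edgeR, over 48174 contigs; range over the 4 alternatives 0.00404 to 0.0683). DESeq2 also called this contig (adjusted p = 0.0373) and 0 of the others, 1 of which had no adjusted p from it.

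At 9 h against 3 h, 0 of the 13 contigs were called by edgeR, beside 0.973% of the contigs tested. The jasmonate-induced protein-like CL1Contig13307 had the smallest p (log2 fold change 1.25 ± 0.48 SE, adjusted p = 0.311 by edgeR) and was the only contig at an unadjusted p under 0.05, beside 8.09% of the contigs tested. It was higher at 9 h in both tissues. EgBEL1 had a log2 fold change of 1.03 ± 0.53 SE (adjusted p = 0.622 by edgeR), and the glycosyltransferase-like CL1Contig9244 one of -1.07 ± 0.70 SE (adjusted p = 0.794 by edgeR). The median log2 fold change was 0.43 over the 13 contigs and -0.05 over all contigs tested. DESeq2 called 0, with 1 at an unadjusted p under 0.05, and 4 of the 13 had no adjusted p from it.

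The selection set the same limits in AZ150 and P150 and did not use the ratio between them. It did need enough reads and the 8-fold ratio in both, which keeps out contigs with a strong difference between these tissues, so few calls could come from this comparison. The pooled AZ150 rate was above the P150 rate for 8 contigs and below it for 5, with a median ratio of 1.09. By counting error alone the interval of the ratio lay wholly above 1 for 5 contigs and wholly below 1 for 2, and the share of such intervals over all contigs was not taken. When the spread over times was taken into account, with tissue and time as terms over all 12 libraries, 0 of the 13 contigs were called in either direction by edgeR, beside 0.669% of the 10762 contigs tested. At an unadjusted p under 0.05 there were 3 contigs, beside 6.94% of the contigs tested, and DESeq2 called 0, with 2 at that level. The median log2 fold change was 0.05 over the 13 contigs and -0.12 over all contigs tested.

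CL1Contig24242 had the largest fitted difference upward, with a pooled AZ150 to P150 ratio of 1.86 (1.34 to 2.58) and a log2 fold change of 1.32 ± 0.52 SE (adjusted p = 0.439 by edgeR), and it was higher in AZ150 at all 4 times. CL1Contig11781 had a ratio of 2.57 (1.90 to 3.48) and a log2 fold change of 1.11 ± 0.52 SE (adjusted p = 0.655 by edgeR), and was higher in AZ150 at 3 of 4 times, with a log2 fold change of 0.35 without the 0 h libraries. CL1Contig3261 had the largest fitted difference downward, with a ratio of 0.434 (0.320 to 0.579) and a log2 fold change of -1.40 ± 0.51 SE (adjusted p = 0.329 by edgeR), and was lower in AZ150 at all 4 times. In a fit on the 8 ripe libraries alone this contig was called lower (log2 fold change -1.49, adjusted p = 0.0299 by edgeR), with the adjusted p over the 10 alternatives between 0.0299 and 1. The other 10 contigs had adjusted p values between 0.911 and 1.00 in the fit over 12 libraries, with standard errors of 0.45 to 0.68 on the log2 scale. On simulated counts the same fit recovered 69 of 200 changes of 4-fold, so smaller differences were mostly not detectable at this depth.

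Of the annotated contigs, EgBEL1 had an AZ150 to P150 ratio of 1.95 (1.54 to 2.48) and a log2 fold change of 0.52 ± 0.48 SE, and was higher in AZ150 at 3 of 4 times. The glycosyltransferase-like CL1Contig9244 had a ratio of 1.35 (0.955 to 1.88) and was higher at all 4 times, with a log2 fold change of 0.67 ± 0.52 SE. The ratio was 1.19 (1.02 to 1.38) for the jasmonate-induced protein-like contig and 1.09 (0.823 to 1.44) for the rubber elongation factor-like one. None of these 4 was called. By another test on read counts, the study retained EgBEL1 among contigs that differed from P150 and AZ30 at any of the times.

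**Figure D4:**
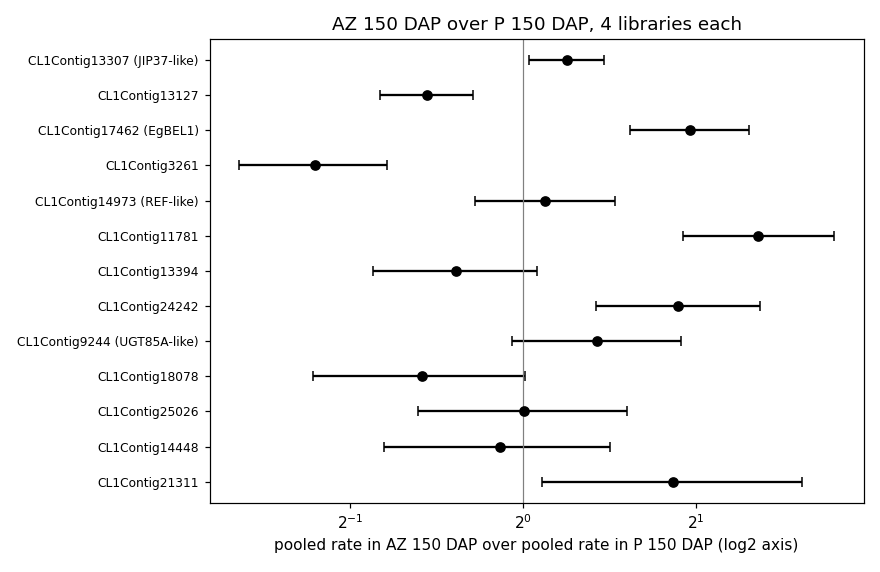
Pooled rate in AZ150 over pooled rate in P150 (horizontal axis, log2 scale), 4 libraries each, for the 13 contigs (vertical axis), with exact 95% counting intervals; the line marks 1. The ratios run from 0.434 for CL1Contig3261 to 2.57 for CL1Contig11781, and none of the differences passed the adjusted test over 12 libraries.

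The field libraries were not used in the selection and give a second view of 3 of the 4 annotated contigs. For the transcript of CL1Contig9244 no value was used here. Levels are in RPKM, reads scaled to transcript length and library size, summed over the transcripts of a gene, from 1 library per age and therefore without a test. The gene of the jasmonate-induced protein-like contig, LOC105044287, had 4.79, 367 and 458 RPKM at 30, 120 and 160 DAP. At the last age it stood above 99.6% of the 39464 genes and single transcripts listed. Most of the difference was present at 120 DAP, before shedding, since the ratio of 160 to 120 DAP was 1.25. EgBEL1 (LOC105059537) had 4.74, 29.8 and 106 RPKM at the same ages, with a ratio of 22.4 between 160 and 30 DAP and of 3.56 between 160 and 120 DAP. It thus differed at both steps.

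The rubber elongation factor-like gene, LOC105036311, had 25.0, 32.5 and 32.9 RPKM at 30, 120 and 160 DAP. The ratio of 160 to 30 DAP was 1.31, whereas in the ethylene libraries the pooled rate of its contig was 15.4 times that of AZ30 in AZ150 (6.76 to 43.1) and 14.1 times in P150 (6.31 to 38.9). Scaling each field library instead to the median gene-wise ratio moved all genes by 0.70 on the log2 scale between 160 and 30 DAP, and the ratio of 160 to 30 DAP was then 2.13 for this gene, that of LOC105044287 155 and that of EgBEL1 36.3. The field and ethylene libraries differ in platform, reference and fruit handling, and which of these goes with the different ratio cannot be told apart.

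With a difference of 2-fold after adding 0.1 to the RPKM, and an RPKM of at least 1 in either library, 2 of these 3 genes were higher at 160 than at 30 DAP, beside 13.9% of the 28170 genes with that level. After the rescaling it was 3 of 3, beside 24.6% of 27921. At 120 against 30 DAP it was again 2 of 3, beside 15.4% of 28221, and at 160 against 120 DAP it was 1 of 3, EgBEL1, beside 8.91% of 24857. These counts were the same after the rescaling, beside 18.3% and 16.8%. With 3 genes, these counts describe the genes and not the group.

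**Figure D5:**
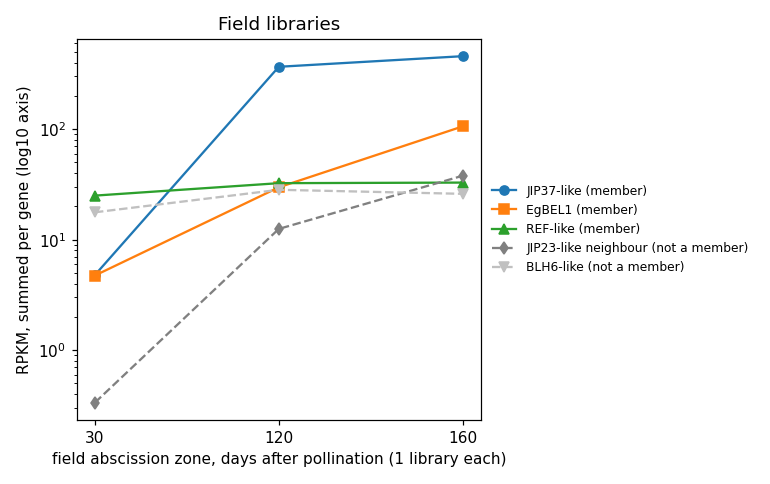
RPKM per gene (vertical axis, log10 scale) in the field AZ libraries at 30, 120 and 160 DAP (horizontal axis, 1 library each) for the 3 selected genes with a field value (solid lines) and for their relatives JIP23-like and BLH6-like, which were not selected (dashed lines). The jasmonate-induced JIP37-like gene reached 367 RPKM at 120 DAP and EgBEL1 106 RPKM at 160 DAP, while the rubber elongation factor-like gene was between 25.0 and 32.9 RPKM as deposited.

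A second jasmonate-induced protein-like contig gives a contrast within the same kind of gene. CL1Contig12732, matching the JIP23 protein of barley and assigned to LOC105044288, reached the 8-fold ripe ratio too, at 10.8 in AZ150 and 9.07 in P150, but exceeded the ethylene limit. It had 0.975, 5.32, 29.5 and 43.3 reads per 100000 in AZ150 at 0, 3, 6 and 9 h and 4.97, 5.49, 28.8 and 89.0 in P150, with treated to 0 h ratios of 31.7 in AZ150 and 4.99 in P150. It was higher at 9 h than at 6 h in both tissues, as was CL1Contig13307, which however stood at 43.9 in AZ150 and 61.5 in P150 without ethylene. In the field it had 0.335, 12.5 and 37.9 RPKM at these ages, below LOC105044287 at each age. In the RefSeq gene table of the oil palm assembly EG11, LOC105044287 and LOC105044288 are neighbours, with 1 noncoding gene and no protein-coding gene between them.

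By function words in their annotation, 6 of the 15 annotated contigs that met both 8-fold ratios fell in the metabolism class. The share was 20.5% of the 1050 annotated contigs in the part of the study's tables that was read. This class went by words such as synthase, transferase and kinase, not by pathway. The ethylene limit was reached by 5 of these 6. It was also reached by 1 of 1 in defence and stress, 1 of 2 in hormone, 1 of 1 in transport and 2 of 3 unclassed, and by 0 of 1 in cell wall and 0 of 1 in transcription. The 4 annotated contigs of the group fell in the hormone, transcription, metabolism and unclassed groups, 1 in each. The cellulose synthase-like CL1Contig12538, set aside by name, was in the cell wall class. The annotated contigs were those that the study itself had called as changed by ethylene in AZ150 in these libraries. The counts by class and the makeup of the 4 are therefore a description only.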

How the data were processed

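Pyrosequencing reads of all 12 ethylene libraries were assembled together by the authors, and raw counts of reads per contig were deposited; the assembler is not stated. For the field libraries the authors trimmed with Cutadapt, mapped with BWA-MEM to transcripts predicted on assembly EG5, counted with SAMtools and deposited RPKM values, whose depth is unknown. A further 17 columns were not used.

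Counts were divided by library totals, with Clopper-Pearson intervals for rates and exact conditional intervals for ratios, with scipy 1.17.1, pandas 2.3.3 and numpy 2.4.6 under Python 3.11.15 (figures: matplotlib 3.10.9). A contig without AZ30 reads was given 1 in the selection. edgeR 4.0.16 in R 4.3.3 (TMM, at least 3 reads in at least 4 libraries, additive tissue and time, adjusted p under 0.05 over all contigs) was the test and DESeq2 1.42.0 an alternative. Residual degrees of freedom were 6 over 12 libraries and 3 over the ripe ones. The SE printed with an edgeR log2 fold change was derived as its size divided by the square root of the F statistic. It is therefore approximate, above all for changes near none. On simulated counts with 200 changed contigs, edgeR recovered 69 at 4-fold and 168 at 8-fold for AZ150 against P150, and 28 and 127 for 9 h against 3 h. Transcript-to-gene assignments and names came from RefSeq (EG11) and the study's annotation, which was read in part. No value of the study's own comparisons was used. The contigs, lists and tests were chosen with earlier results of these data known. By rule, every annotated contig, the 10 most abundant and those with extreme ratios or nearest to a limit are named, which covers all 13.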

Additional observations from a re-analysis of the deposited data

How the results depend on the processing

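The selection gave 26 contigs with at least 20 reads, 31 at a ratio of at least 4 and 6 at a ratio of at least 16, all 13 being among the 26 and the 31, and 9 to 14 under the other limits and TMM library sizes. Leaving out the libraries of 1 treated time gave 10 to 14, with 8 or 9 of the 13 kept; leaving out 0 h cannot be applied. Against P150, 1 contig was called lower in AZ150 with the 8 ripe libraries only, and 0 under all other settings. All contigs called in that comparison numbered 40 with at least 1 read in 4 libraries, 30 with no filter, 123 with the 8 ripe libraries and 21 without a time term, beside 72, and 29 to 47 when a time was left out (45 without 0 h, 36 without 3 h, 47 without 6 h, 29 without 9 h). At 9 h against 3 h they numbered 35 with at least 1 read in 4 libraries, 30 with no filter, 47 by DESeq2 and 2 with hours as a linear term, beside 84. At 6 h against 3 h they numbered 148, 85 and 93 with the lower filter, no filter and DESeq2, beside 302, and 0 of the 13 were called with no filter. With library totals in place of TMM, calls at 9 h against 3 h split into 53 higher and 54 lower, beside 52 and 32, and at 6 h against 3 h into 132 higher and 204 lower, beside 148 and 154, where the median log2 fold change of all contigs was -0.08, beside 0.07, and that of the 13 was 0.93, beside 1.07. Rescaled by the median ratio, 3 of 3 field genes were higher at 160 than at 30 DAP, beside 2. At 4-fold, 0 field genes were higher at 160 than at 120 DAP. The cause was not tested. No paired analysis was possible because each group holds 1 library; AZ150 and P150 were matched by hour through the time term. Counts of few reads limit the weakest contigs, at 30 to 36 reads in AZ150.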
